A study of Mus musculus with 10 samples.

Results

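The urea cycle turns ammonia into urea, and 8 of its genes were followed in mouse liver: the enzymes Nags, Cps1, Otc, Ass1, Asl and Arg1 and the mitochondrial carriers Slc25a13 and Slc25a15. They were chosen by symbol as members of the pathway, with earlier results of these data known, and all 8 are among the 24972 symbols of the deposited table. RNA came from the livers of mice labelled WT that bore pancreatic ductal adenocarcinoma (PDAC), grown from a KPC-derived cell line. KPC is a genetically engineered mouse model of pancreatic cancer. The T cell-low group held livers of hosts of 6419c1 tumours (n = 4), and the T cell-high group livers of hosts of 6555c3 tumours (n = 6). Each group therefore rests on 1 tumour line, and line and T cell class cannot be told apart. The labels used here state neither age nor sex nor the time since implantation. The question is how the liver of the tumour host differs with the T cell content of the tumour.

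In the mitochondria of periportal hepatocytes, Nags makes the activator that Cps1 needs, Cps1 joins ammonia and bicarbonate into carbamoyl phosphate, and Otc passes that group to ornithine to give citrulline. Slc25a15 exchanges ornithine and citrulline across the inner membrane, and Slc25a13 (citrin) exports the aspartate that supplies the other nitrogen. In the cytosol Ass1 and Asl make arginine, which Arg1 splits into urea and ornithine.

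The stretches upstream of Otc and Nags are shown because the transcripts of these pathway genes lay on opposite sides of the T cell-high range in T cell-low 2 and 4. For both genes T cell-low 1 and 3 lay inside that range, and neither gene passed the test (values below). Both are the 250 bases before the start, on the plus strand of GRCm38.p6. They come from a set of RefSeq promoters in which 5 of the 8 genes had entries (also Ass1, Slc25a13 and Slc25a15). Capitals mark a match to a short motif of HNF4, a hepatocyte transcription factor, written AAAGTNCA and searched on both strands.
Otc, chrX:10252055-10252304: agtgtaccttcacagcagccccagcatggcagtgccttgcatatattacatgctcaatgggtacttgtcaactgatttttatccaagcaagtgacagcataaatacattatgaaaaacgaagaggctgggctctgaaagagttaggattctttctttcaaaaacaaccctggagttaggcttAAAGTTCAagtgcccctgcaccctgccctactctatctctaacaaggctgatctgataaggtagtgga
Nags, chr11:102145263-102145512: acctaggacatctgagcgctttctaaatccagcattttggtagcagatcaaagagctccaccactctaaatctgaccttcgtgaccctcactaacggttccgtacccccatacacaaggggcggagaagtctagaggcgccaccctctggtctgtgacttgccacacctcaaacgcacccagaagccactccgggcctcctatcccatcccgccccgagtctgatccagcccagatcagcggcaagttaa

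The Otc stretch held 1 match, which begins 68 bases before the start, and the Nags stretch held 0. Of 32851 RefSeq promoters cut to the same length, 3.53% held this motif, which was chosen after the Otc stretch was seen. The cAMP response element TGACGTCA (1.55% of promoters), its shorter form TGACG (17.8%, which overlaps the full element), the STAT motif TTCNNNGAA (7.02%), the C/EBP motif TTGCNNAA (9.56%), TGTTCT of the glucocorticoid receptor (16.1%), TATAAA (12.4%) and CCAAT (33.9%) had no match in either stretch. Of the other genes with entries, Slc25a13 held CCAAT (22 bases before the start) and TGACG (13 bases before it). The log2 fold change of Hnf4a, an HNF4 gene, was -0.30 and did not pass (limma, adjusted p = 0.590). A role of HNF4 in the Otc values was not tested. The G and C content was 43.6% upstream of Otc and 55.6% upstream of Nags.

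The measured value is a scaled count, a read count per gene from the 3′ ends of transcripts that the authors scaled to make libraries comparable. Scaled totals ran from 7000659 to 8257373 per library, and from 13370 to 14300 genes were above 0. T cell-low 1 stood apart from its group: over tested genes its log2 values had a mean correlation of 0.861 with the other T cell-low libraries and 0.936 with the T cell-high libraries. T cell-high 1, 3, 5 and 6 form a set, of T cell-high livers alone, in which H2-L, a histocompatibility gene, is listed at 0, against 307 to 1477 in the other libraries. Of 11 hepatocyte markers 10 were measured, none of them at 0 throughout, with summed levels of 631636 to 856506 scaled counts in the T cell-low group and 422500 to 718779 in the other. Of 11110 genes tested with limma, 1420 (12.8%) passed at an adjusted p below 0.05, 599 with higher values (5.39%) and 821 with lower values (7.39%) in the T cell-low group. With libraries scaled to equal totals the split was 421 higher and 1068 lower, and the median log2 fold change of all genes moved from 0.003 to -0.12.

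Of the 8 urea cycle genes, Arg1 rose in T cell-low livers, 0 fell and 7 did not pass the test. The share of all genes that passed was 12.8%, so 1 of 8 is near the background. The median log2 fold change over the 8 was 0.46, against 0.003 over all genes tested, and 6 of the 8 values were above 0. For every one of the 8 genes the groups overlapped, and groups without overlap were seen in 7.39% of all genes tested.

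**Figure D1:**
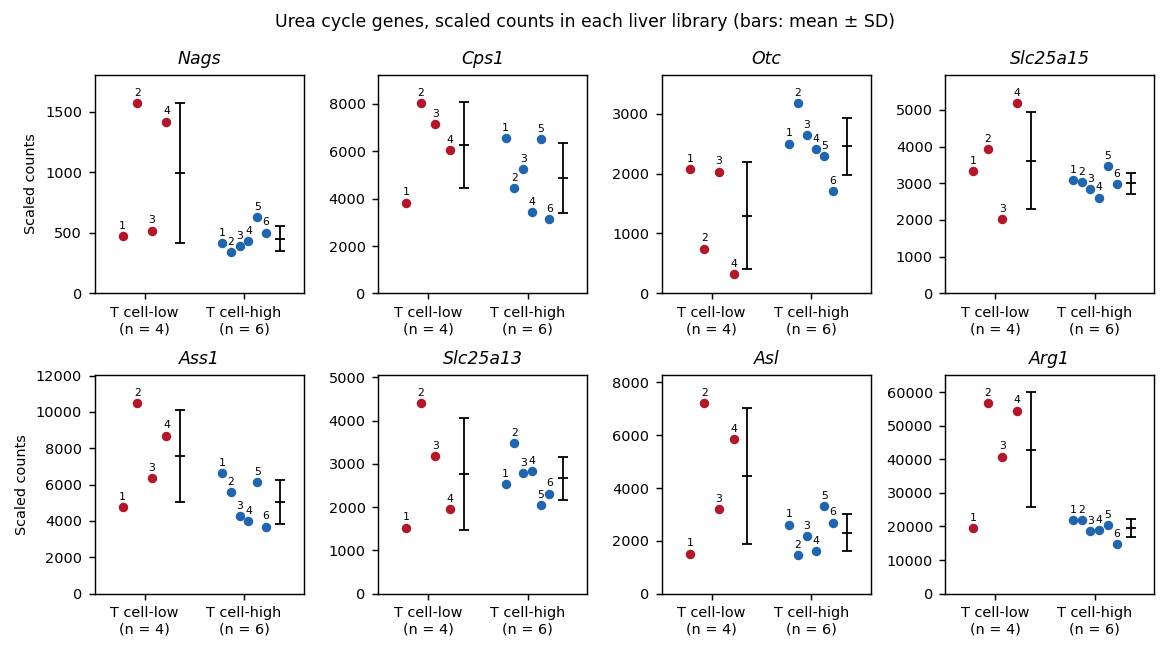
Scaled counts of the 8 urea cycle genes in each library, each panel with its own linear axis from 0; points are libraries with their replicate number, and black bars are the mean ± SD of 4 T cell-low and 6 T cell-high livers. Arg1, Nags and Asl are high and Otc is low in T cell-low 2 and 4, while T cell-low 1 lies within the T cell-high range except for Slc25a13, where it is below.

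Nags, which makes N-acetylglutamate, the activator of Cps1, lies on chromosome 11 (102145513 to 102149477, plus strand, GENCODE vM21). It had 469.55, 1570, 519 and 1417 scaled counts in T cell-low 1 to 4 and 340.3 to 632 (median 421) in T cell-high livers. T cell-low 2 and 4 lay above every T cell-high liver and T cell-low 1 and 3 lay within their range. The means were 994 ± 581 (SD, n = 4) and 450.2 ± 104 (SD, n = 6), a log2 fold change of 0.96 (SE 0.34) that did not pass (limma, adjusted p = 0.0760). An exact two-sided permutation test of the same difference gave p = 0.0381, and the smallest p that the 210 arrangements of the libraries can give is 0.00952. All 8 genes were tested in this way. The span of Nags overlaps that of Gm11586 on the opposite strand, outside the last exon of Nags.

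Cps1, the entry enzyme of the cycle (chromosome 1, 67123026 to 67231259, plus strand), had 3828, 8033, 7159 and 6043 scaled counts in T cell-low 1 to 4 and 3140 to 6553 (median 4843) in T cell-high livers. Values of T cell-low 2 and 3 were above the T cell-high range, and those of T cell-low 1 and 4 were inside it. The log2 fold change was 0.36 (SE 0.27, 95% interval -0.23 to 0.95; limma, adjusted p = 0.358; exact permutation test, p = 0.248). A rise of up to 0.95 on the log2 scale thus lies within the interval.

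Otc, ornithine transcarbamylase (chromosome X, 10252305 to 10321024, plus strand), was the member with the lowest values in T cell-low livers relative to T cell-high livers. It had 2072, 747, 2033 and 320.2 scaled counts in T cell-low 1 to 4 and 1714 to 3178 (median 2455) in T cell-high livers. T cell-low 2 and 4, the libraries with the highest Nags, lay below every T cell-high liver, and T cell-low 1 and 3 lay inside the range. The mean was 1293 ± 894 (SD, n = 4) against 2455 ± 476 (SD, n = 6). The log2 fold change of -1.27 (SE 0.44, 95% interval -2.22 to -0.32) did not pass (limma, adjusted p = 0.0685; exact permutation test, p = 0.0238). Without T cell-low 4 it was -0.72 (limma, adjusted p = 0.167) and without T cell-low 1 it was -1.62 (limma, adjusted p = 0.0132).

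Both carriers had log2 fold changes nearer to 0. Slc25a15, the ornithine and citrulline exchanger (chromosome 8, 22375551 to 22398597, minus strand), had 3329, 3935, 2018 and 5185 scaled counts in T cell-low 1 to 4 and 2609 to 3476 (median 2999) in T cell-high livers. Here T cell-low 2 and 4 were above the T cell-high range and T cell-low 3 was below it. The log2 fold change was 0.19 (SE 0.23, 95% interval -0.31 to 0.70; limma, adjusted p = 0.576; exact permutation test, p = 0.448). Slc25a13, the aspartate exporter (chromosome 6, 6041218 to 6217173, minus strand), had 1526, 4401, 3181 and 1950 against 2050 to 3490 (median 2661). T cell-low 2 was above the T cell-high range, T cell-low 1 and 4 were below it and T cell-low 3 was inside. Its log2 fold change was -0.05 (SE 0.28, 95% interval -0.65 to 0.55; limma, adjusted p = 0.912; exact permutation test, p = 0.862).

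The cytosolic enzymes had higher mean scaled counts in T cell-low livers, as did Nags, Cps1 and both carriers, while Otc had a lower mean. Ass1, argininosuccinate synthase (chromosome 2, 31470207 to 31520672, plus strand), had 4754, 10469, 6366 and 8696 scaled counts in T cell-low 1 to 4 and 3693 to 6616 (median 4940) in T cell-high livers. T cell-low 2 and 4 again lay above every T cell-high liver. The log2 fold change was 0.55 (SE 0.25) and did not pass (limma, adjusted p = 0.141; exact permutation test, p = 0.0762). Of the 50-base words at its 3′ end 13.7% occur in Gm5424, so a read from there could match both genes. Gm5424 is listed at 0 in all 10 libraries, and how such reads were assigned is unknown. The other 7 genes share no such word with another gene.

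Asl, argininosuccinate lyase (chromosome 5, 130011258 to 130029247, minus strand), had 1514, 7205, 3214 and 5864 scaled counts in T cell-low 1 to 4 and 1465 to 3312 (median 2397) in T cell-high livers. T cell-low 2 and 4 stood above the T cell-high range, T cell-low 3 was just inside its upper end and T cell-low 1 was near its lower end. The log2 fold change was 0.77 (SE 0.39, 95% interval -0.07 to 1.61; limma, adjusted p = 0.176; exact permutation test, p = 0.133).

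Arg1, the arginase that releases urea (chromosome 10, 24915221 to 24927484, minus strand), was the member that passed. It had 19618, 56630, 40800 and 54503 scaled counts in T cell-low 1 to 4 and 14754 to 21923 (median 19670) in T cell-high livers. T cell-low 2, 3 and 4 were above every T cell-high liver, and T cell-low 1 lay inside their range. The mean was 42888 ± 17025 (SD, n = 4) against 19428 ± 2672 (SD, n = 6), a log2 fold change of 1.04 (SE 0.28, 95% interval 0.43 to 1.65; limma, adjusted p = 0.0358; exact permutation test, p = 0.0190), or 2.06-fold. This call was lost without any 1 of T cell-low 2, 3 and 4 and T cell-high 1, 3, 4, 5 and 6 (limma, adjusted p from 0.0536 to 0.128) and kept without T cell-low 1 (adjusted p = 6.1e-04) or T cell-high 2 (adjusted p = 0.0296). When the library set was made a covariate, the log2 fold change was 0.96 (limma, adjusted p = 0.259), a comparison with T cell-high 2 and 4 alone.

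**Figure D2:**
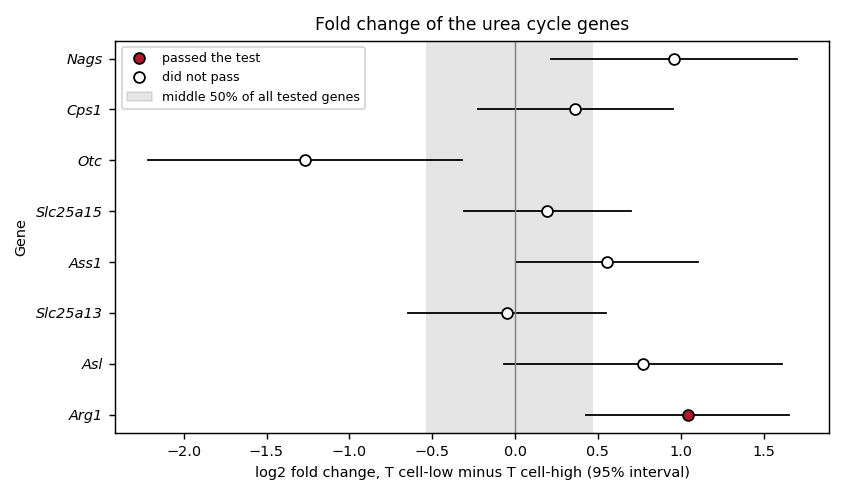
Log2 fold change of each urea cycle gene, T cell-low minus T cell-high, with its 95% interval from limma; the grey band spans the middle 50% of all tested genes (-0.54 to 0.47). The filled point is Arg1 (1.04), the member that passed, and Otc (-1.27) lies on the other side of 0.

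Without T cell-low 1, the library that stood apart, 5 of the 8 genes passed: Arg1, Asl, Nags and Ass1 rose and Otc fell. In that comparison 32.7% of all genes passed. Without T cell-low 2, T cell-low 3, T cell-low 4 or any of T cell-high 1, 3, 4, 5 and 6, 0 of the 8 passed by limma, while from 2 to 5 of them had an unadjusted p below 0.05. Less RNA of a gene per hepatocyte and fewer hepatocytes in the piece of liver cannot be told apart in these bulk samples.

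**Figure D3:**
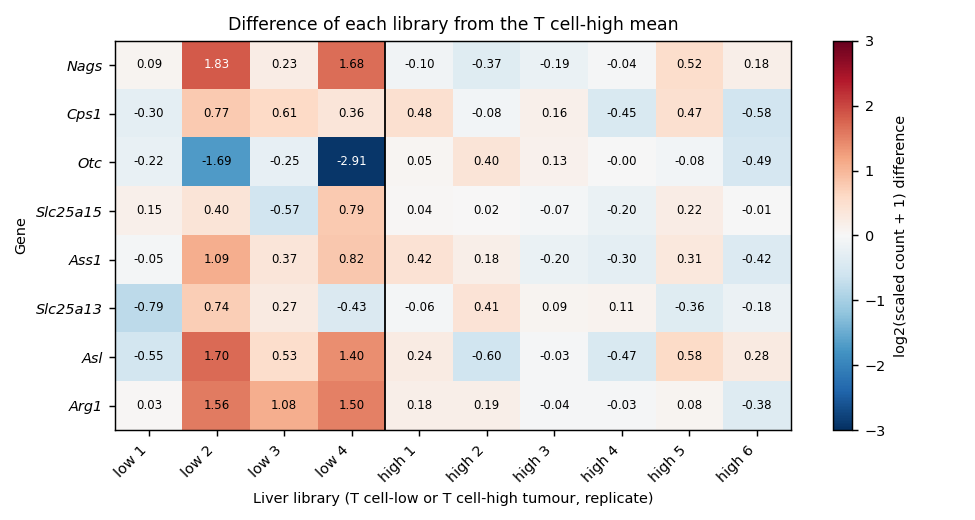
Difference of each library from the mean of the 6 T cell-high livers, in log2(scaled count + 1), for the 8 genes in pathway order. T cell-low 2 and 4 are high for Nags (1.83 and 1.68), Asl (1.70 and 1.40) and Arg1 (1.56 in T cell-low 2) and low for Otc (-1.69 and -2.91), and T cell-low 1 stays between -0.79 and 0.15.

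The T cell-low livers differed among themselves more than the T cell-high livers did. The SD of the log2 values was larger in the T cell-low group for 8 of the 8 genes, and for 67.0% of all tested genes. Otc had an SD of 1.29 against 0.29 and Asl 1.01 against 0.46 on that scale, while for Cps1 the SDs were 0.47 and 0.45. The median of the 8 differences from the T cell-high mean was -0.14, 0.93, 0.32 and 0.81 for T cell-low 1 to 4, and ran from -0.28 to 0.27 over the T cell-high libraries. T cell-low 3 departed from T cell-low 2 and 4 in several genes of both compartments. Its Nags, Otc, Ass1 and Asl were within the T cell-high range, and its Slc25a15 was below that range. Its Arg1 was above the range, as in T cell-low 2 and 4. Its Cps1 was above the range as well, where T cell-low 2 was above and T cell-low 4 was inside.

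Summed, the 8 genes took 0.526%, 1.17%, 0.811% and 1.02% of the scaled counts of T cell-low 1 to 4 and 0.438% to 0.659% of those of T cell-high livers (means 0.880% ± 0.277, SD, n = 4, and 0.560% ± 0.0788, SD, n = 6). Arg1 alone accounted for 0.539% ± 0.194 against 0.270% ± 0.0393 of a library. The other 7 genes together accounted for 0.341% ± 0.0885 and 0.289% ± 0.0442, so their group means differed by less than the SD of the T cell-low livers. No test is given for these sums.

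The pattern of Arg1 over the 10 libraries was most like that of Serinc3 and Mtss1. The measure was the root mean square difference of log2 values centred on each gene's mean, which was 0.0957 for Serinc3, 0.109 for Mtss1 and a median of 0.818 over all tested genes. Serinc3, a membrane protein gene, had 3662 ± 1462 scaled counts (SD, n = 4) against 1647 ± 118 (SD, n = 6). Mtss1, which encodes an actin-binding protein, had 3012 ± 1218 against 1425 ± 247.

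Of the paralogues and partners of the members, 3 were tested and 0 passed by limma (1, Slc25a22, had an unadjusted p below 0.05). Arg2, the mitochondrial arginase, was listed at 0 in all libraries except T cell-low 3 (6.74 scaled counts), so it was not tested. Slc25a12, the other aspartate carrier, averaged 161 ± 58.2 scaled counts (SD, n = 4) against 109 ± 20.3 (SD, n = 6), T cell-low livers first (log2 fold change 0.50, SE 0.26; limma, adjusted p = 0.186). Slc25a22, a mitochondrial glutamate carrier, had 25.7 ± 20.5 against 127 ± 113 (-1.78, SE 0.81; limma, adjusted p = 0.136), a value that was 0.47 with the library set as a covariate. Glul, the glutamine synthetase of pericentral hepatocytes that captures ammonia escaping the cycle, had 4675 ± 1017 against 4996 ± 1096 (-0.10, SE 0.22; limma, adjusted p = 0.780), and 0.22 with that covariate.

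Among 19 tested genes of ammonia and glutamine supply, 2 rose, 4 fell and 13 did not pass (list median -0.10 on the log2 scale). Over all genes tested, 5.39% rose and 7.39% fell. Car5a, the mitochondrial carbonic anhydrase that supplies bicarbonate to Cps1, had 337, 139, 201 and 127 scaled counts in T cell-low 1 to 4 and 435 to 846 in T cell-high livers. All T cell-low livers lay below all T cell-high livers, and the log2 fold change was -1.76 (SE 0.28; limma, adjusted p = 0.00876). Gls2, the liver glutaminase that frees ammonia from glutamine beside Cps1, fell (973 ± 440 against 2364 ± 920; -1.29, SE 0.37; limma, adjusted p = 0.0400). So did the glutamine transporter gene Slc38a3 (1239 ± 233 against 2518 ± 757; -0.98, SE 0.26; limma, adjusted p = 0.0337). Under the covariate for the library set, with which 0 of all genes passed by limma (1788 at an unadjusted p below 0.05), Gls2 was at -0.50 (adjusted p = 0.498) and Slc38a3 at -0.43 (adjusted p = 0.423). Asns, asparagine synthetase, rose from 3.15 ± 3.26 to 30.9 ± 19.8 (3.26, SE 0.76; limma, adjusted p = 0.0232). It is listed at 0 in T cell-high 2 and 6, so the fold change depends on the pseudocount: it was 3.68 with a pseudocount of 0.5 and 1.57 with 10. Rhbg, an ammonia transporter gene named because the count was small, fell (-1.23).

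Arginine, ornithine and proline metabolism gave 1 gene that rose, 4 that fell and 13 that did not pass of 18 tested (list median -0.33). Over all genes tested, 5.39% rose and 7.39% fell. Gamt, which makes creatine from an arginine-derived precursor, had 325 ± 213 scaled counts against 1393 ± 201 (-2.35, SE 0.36; limma, adjusted p = 0.00835). Ddah1, which breaks down methylated arginine, had 594 ± 481 against 1779 ± 227 (-2.07, SE 0.50; limma, adjusted p = 0.0247). Aldh4a1, the last enzyme of proline breakdown, fell as well (-0.85, SE 0.16; limma, adjusted p = 0.0141), as did Agmat (-0.91, SE 0.26; limma, adjusted p = 0.0410). For these 4 genes the groups did not overlap, which was so for 7.39% of all genes tested. Sat1, of polyamine breakdown, was the gene that rose (1.23). Slc7a2, a cationic amino acid transporter that takes up arginine, had 849, 5343, 2533 and 3764 in T cell-low 1 to 4 against 694 to 1652, with a log2 fold change of 1.10 that did not pass (limma, adjusted p = 0.0941); it was chosen after its values were seen.

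The list of pathway regulators also held the enzyme genes Pck1 and Tat. Of its 21 tested genes, 2 rose, 1 fell and 18 did not pass (list median -0.02), a share near the 12.8% of all genes. Gcgr, the receptor for glucagon, a hormone that induces urea cycle enzymes, had 402, 145, 161 and 168 scaled counts in T cell-low 1 to 4 and 345 to 624 in T cell-high livers. T cell-low 1 lay among the T cell-high livers and the other T cell-low livers lay below them (-1.23, SE 0.29; limma, adjusted p = 0.0242). Onecut1, a hepatocyte transcription factor gene, rose from 92.2 ± 28.3 to 246 ± 76.6 (1.41, SE 0.29; limma, adjusted p = 0.0169), and Foxa3 rose from 909.6 ± 332 to 2768 ± 1684 (1.42, SE 0.42; limma, adjusted p = 0.0449). Under the covariate for the library set Onecut1 was at 0.94 (limma, adjusted p = 0.230) and Foxa3 at 0.82 (limma, adjusted p = 0.432). Atf4, a stress-responsive transcription factor gene chosen after its values were seen, had 1428, 6858, 2781 and 7430 in T cell-low 1 to 4 against 1244 to 2349, with a log2 fold change of 1.30 (limma, adjusted p = 0.0504).

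Genes of the amino acid breakdown list mostly fell where they passed. Of 36 tested, 10 fell, 1 rose and 25 did not pass (list median -0.44), while 7.39% of all genes tested fell and 5.39% rose. Haao of tryptophan breakdown had 1531 ± 639 scaled counts against 3520 ± 418 (-1.29, SE 0.24; limma, adjusted p = 0.0137). Agxt, which transaminates glyoxylate with alanine, had 836 ± 199 against 1498 ± 131 (-0.87, SE 0.19; limma, adjusted p = 0.0198), and Uroc1 of histidine breakdown had 1260 ± 343 against 2215 ± 153 (-0.85, SE 0.19; limma, adjusted p = 0.0208). Sdsl, which encodes a serine dehydratase-like enzyme, rose from 66.3 ± 12.6 to 424 ± 253 (2.38, SE 0.43; limma, adjusted p = 0.0120). Whether these lists differ from the urea cycle genes was not tested. With all libraries 6, 5, 3 and 11 genes were called in the ammonia, arginine, regulator and breakdown lists. Leaving out T cell-low 1 gave 10, 9, 7 and 20 calls, T cell-low 2 gave 1, 2, 0 and 1, T cell-low 3 gave 1, 3, 1 and 5, and T cell-low 4 gave 1, 1, 0 and 2. Leaving out T cell-high 1 gave 3, 2, 1 and 3 calls, T cell-high 2 gave 9, 6, 6 and 13, T cell-high 3 gave 1, 2, 1 and 4, T cell-high 4 gave 4, 4, 3 and 11, and T cell-high 5 or 6 gave 2, 2, 1 and 4. Calls over all genes moved as well, from 1420 of 11110 tested with all libraries. Without T cell-low 1 to 4 they were 3633, 109, 508 and 156. Without T cell-high 1 to 6 they were 433, 2280, 380, 1095, 403 and 446, of 11081 to 11123 tested. The ammonia list had 19 or 20 tested genes in these runs. Where the regulator list had 0 calls by limma, 8 of its genes had an unadjusted p below 0.05.

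**Figure D4:**
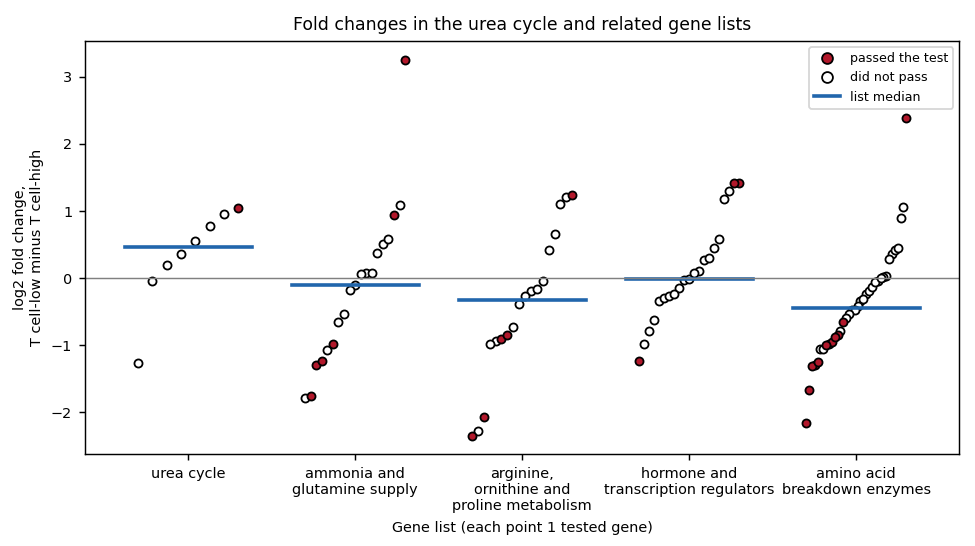
Log2 fold change, T cell-low minus T cell-high, of each tested gene in the urea cycle and 4 related lists; filled points passed the test and blue lines are list medians. The urea cycle median is 0.46, and the medians of the related lists lie between -0.44 and -0.02.

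Zonation markers were read because urea cycle enzymes are periportal. These marker lists share genes with the related lists above. The falls of Gls2 and Uroc1 (periportal) and of Rhbg (pericentral) are counted in both. Of 18 tested periportal markers 8 fell and 1 rose (list median -0.69), with Cyp2f2 at 1511 ± 394 scaled counts against 3980 ± 986 (-1.39, SE 0.25; limma, adjusted p = 0.0120; -0.91 under the covariate for the library set) and Apoa4 the one that rose (2.14). Of 19 tested pericentral markers 6 fell and 0 rose (list median -0.87), with Cyp1a2 at 3472 ± 2771 against 9574 ± 1406 (-1.92, SE 0.47; limma, adjusted p = 0.0263). Of 10 tested hepatocyte markers 2 rose, Apoa1 (1.08) and Apob (1.05, and 0.50 under that covariate), and 0 fell. Over all genes tested, 5.39% rose and 7.39% fell.

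Arg1 is also made by some myeloid cells, and markers of other cell types moved in these livers. Of 14 neutrophil markers 6 were tested and 5 rose, while 5.39% of all genes tested rose. The summed level of the 14 ran from 773 to 2108 scaled counts in the T cell-low group and from 74.6 to 287 in the other. T cell-low 1, whose Arg1 was within the T cell-high range, had a neutrophil sum of 1071, and T cell-low 2, with the highest Arg1, had the lowest sum of its group. Of 14 tested macrophage and Kupffer cell markers 1 rose, Chil3, with sums of 7568 to 11503 and 4167 to 14250. Among erythroid markers 2 of 6 rose (43163 to 98228 against 19681 to 51936). The number that rose was 1 of 10 for stellate cells and fibroblasts (3733 to 5947 against 2777 to 3549), 1 of 6 for cholangiocytes and tumour epithelium (1510 to 2402 against 1365 to 2145) and 0 of 3 for T and B cells (39.1 to 150.2 against 42.5 to 78.7), and 0 fell in these 3 lists. In the endothelial list 2 of 11 rose and 1 fell (2809 to 3379 against 2928 to 4119). No marker present in the table was at 0 in every library, and the part of these cells in the Arg1 result was not tested.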

How the data were processed

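Mouse liver RNA was made into 10 libraries of 3′ ends (QuantSeq FWD), per the labels' protocols. The submitters' processing notes name STAR, DESeq2 and mm10, with neither read counter nor annotation. The deposited values are a signal per gene, gene counts that the authors scaled between libraries. They are not whole, and from 2.90% to 3.76% of values above 0 per library fall on whole steps (tolerance 0.001), so reads were not recovered and no counting interval was computed.

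Groups and replicate numbers came from the titles, and columns were matched by the submitters' library label. Nothing says that libraries came from separate mice, so n and SD refer to libraries, and each liver counted in the text is a library. P-values measure the spread between libraries, which may be technical. Genes with a mean of at least 10 were compared as log2(scaled count + 1) with limma 3.58.1 (R 4.3.3, trend on the mean, group as the only term, two-sided). P-values were Benjamini-Hochberg adjusted over all genes tested and called below 0.05. Fold changes are on the log2(value + 1) scale. The fit was also run on simulated data in which both groups had the same SD for a gene. In the real data the SD was larger in the T cell-low group for 67.0% of tested genes. The simulation therefore cannot show how the fit behaves with such groups.

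Members and lists were chosen with earlier results of these data known. Named genes were the 8 members, the 4 called genes of lowest adjusted p in each list (or 1 or 2 of highest mean where none was called), Arg2, Glul, Slc25a12, Slc25a22 and the 2 genes nearest in pattern to each called member, which gave 52 genes. Other genes in the text were chosen after their values were seen. The value of 1 called gene of the ammonia list is not reported here. Gene positions were taken from GENCODE vM21 (mm10). Words of 50 bases from the last 400 bases of coding transcripts were searched in all other genes. Because counts come from 3′ ends, values were not divided by length and levels of different genes are not compared. Alternatives covered scaling, filter, pseudocount, robust option, weights, replicate block, the library set and single libraries. Figures used matplotlib 3.10.9.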

Additional observations from a re-analysis of the deposited data

Results flagged for a closer look

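Both groups were examined for each named gene and for the share of the 8 genes, which made 106 tests. In these, 5 values stood apart from the rest of their group by Dixon's criterion (log2 scale for genes). Chance gives about 5% of tests, but these tests reuse the same libraries and are not independent. T cell-low 1 was the library in 4 of them. It had 402 scaled counts of Gcgr, the glucagon receptor gene, and was the highest of its group, and it was the lowest for Lyve1 (158) and Stab2 (193), both of sinusoidal endothelium, and for the erythroid gene Slc4a1 (19.8). T cell-low 3 had 6.74 scaled counts of Arg2, which is listed at 0 in the other 3 libraries of its group. None of the 8 urea cycle genes met this criterion in either group.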

How the results depend on the processing

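Of the 21 alternatives, 9 kept the call of Arg1 (limma, adjusted p from 6.1e-04 to 0.542 over all of them). It was lost with no filter (log2 fold change 1.04), the replicate block (0.97, adjusted p = 0.140), the library set as a covariate (0.96) and without that set (0.96), and ran from 0.87 to 1.38 when single libraries were left out. Under these 4 settings 0 urea cycle genes passed by limma (3, 3, 4 and 1 at an unadjusted p below 0.05), and with library weights 3 did, Otc (-1.33) and Nags (1.02) joining Arg1. Leaving out single libraries gave 0 to 5 called genes, with log2 fold changes of -1.62 to -0.72 for Otc, 0.38 to 0.76 for Ass1, 0.46 to 1.21 for Asl, 0.67 to 1.25 for Nags and 0.22 to 0.58 for Cps1. Slc25a13 turned to 0.12 with library weights and ran from -0.31 to 0.19 (0.19, 0.08 and 0.03 without T cell-low 1, T cell-low 4 and T cell-high 2), and Slc25a15 ran from -0.0062 (without T cell-low 4) to 0.45. Median-of-ratios or equal-total scaling changed no sign among the 8. Over all genes tested, 1420 calls became 3266 with library weights, 193 with the replicate block, 0 with the library set as a covariate or left out (limma; 1788 and 1027 at an unadjusted p below 0.05), and 109 to 3633 without single libraries (lowest without T cell-low 2, highest without T cell-low 1).

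Called genes of the ammonia, arginine, regulator and breakdown lists ran from 1 to 10, 1 to 9, 0 to 7 and 1 to 20 without single libraries. With the replicate block each had 1, and with the library set as a covariate or left out each had 0 by limma (5, 6, 4 and 8, or 4, 6, 1 and 7, at an unadjusted p below 0.05). With no filter the ammonia and arginine lists had 3 each. Library weights gave 8 in the arginine and 6 in the regulator list, which had 5 with equal totals and 5 with a mean of at least 50. When the 10 genes of highest mean were left out of the total, the share of the 8 genes averaged 0.690% in T cell-high livers (0.535% to 0.812%). It was then 0.663%, 1.45%, 1.05% and 1.29% in T cell-low 1 to 4. With the full total, the mean share in T cell-high livers ran from 0.540% to 0.584% without single libraries (0.785% to 0.998% in T cell-low livers, chosen after seeing the data). The replicate numbers did not pair the libraries (correlations of same-numbered deviations 0.104, 0.211, -0.0988 and -0.151, with T cell-low 2 alone nearest to its own number). Among 43 other named genes 3 changed sign under some alternative: Ms4a1 (-0.0243 with the set as a covariate or left out, and -0.00973 to 0.79 without single libraries, below 0 without T cell-high 1), Glul (0.064 with the replicate block, 0.22 with the covariate or without the set, and -0.20 to 0.067 without single libraries, above 0 without T cell-low 2) and Slc25a22 (0.47 with the covariate or without the set). The causes were not tested. The depth behind a scaled count is unknown.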
